A study of Mus musculus with 2 samples.

Results

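A layer of weak distal DNase I accessibility shared by both libraries of mouse left cerebral cortex consisted of 7937 peaks in replicate 1 and 7927 in replicate 2. These peaks were chosen by 3 criteria from a broader and a stricter list of accessible sites deposited for each library. A peak had to lie on an autosome in the broader list of its own library and overlap a broader-list peak of the other library by at least 1 bp. It had to overlap no stricter-list peak of either library. Its midpoint had to lie more than 1 kb from every transcript start annotated in GENCODE M21. The members were 11.5% of 69184 autosomal broader-list peaks in replicate 1 (95% Wilson interval 11.2 to 11.7) and 11.3% of 70190 in replicate 2 (11.1 to 11.5). Joined across libraries they formed 8105 loci, of which 7464, or 92.1%, were members in both. They are called weak distal sites below, and the peaks that met the same sharing and distance criteria in the stricter lists, 13338 and 13343 in number, are called strict distal peaks.

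Both libraries came from male B6CASTF1/J mice, a hybrid strain supplied by The Jackson Laboratory, at 8 to 10 months of age. No treatment, genotype contrast or time course was given, so the series holds 1 group of 2 biological replicates. The replicates have separate biosample identifiers under 1 donor identifier, and the spread between them may therefore leave out variation between animals. The 2 parental alleles of a hybrid were not separated, and all coordinates are on mm10. Stricter-list peaks lay at the start of 17 of 18 housekeeping genes, 16 of 20 synaptic genes and 8 of 20 excitatory neuron genes, and at 0 of 16 liver genes and 0 of 15 lymphocyte and erythroid genes. The list of heart and skeletal muscle genes was not at 0, with 3 of 16, and lists of several cell types of cortex were about as low, with 4 of 20 inhibitory neuron, 3 of 18 endothelial, 2 of 19 microglia and 1 of 14 pericyte and smooth muscle genes. The other lists had 17 of 20 (activity-regulated), 8 of 20 (astrocyte), 6 of 20 (oligodendrocyte), 6 of 15 (oligodendrocyte precursor) and 5 of 14 (ependymal and choroid plexus). The share over all 20780 autosomal protein-coding genes was 51.0%.

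DNase I cleaves DNA where nucleosomes are absent or displaced, and accessible sites away from promoters are mostly enhancers, insulators and other regulatory elements. In brain tissue many enhancers are open in only some of the cell types, and a site open in few cells and a site partly open in many cells give the same low signal in a bulk library. CTCF is a zinc finger protein that binds insulators and loop anchors. AP-1 is the FOS and JUN dimer induced in neurons by activity and used by many cell types. The nuclear factor I (NFI) proteins act in glia and neurons, and basic helix-loop-helix (bHLH) factors of the NEUROD and TCF4 kind bind E-boxes such as CAGATG and CAGCTG.

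Reference sequence shows what a weak distal site looks like for the recognition sequences that were over-represented in these sites. For each of up to 8 such sequences a site of high strength with a match was taken, and the AP-1 site was added after its values were seen. The CTCF site shown is not the strongest with a match. A site in untranslated sequence of Trp53i13, given below, had strengths of 1.98 and 2.27. Each line gives 100 bases of the plus strand of GRCm38.p6 (mm10) from RefSeq, with the match in capitals.
CTCF, intron of Sema6b, chr17:56131994-56132093: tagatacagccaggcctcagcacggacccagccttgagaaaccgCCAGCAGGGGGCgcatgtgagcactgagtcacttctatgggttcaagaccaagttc
RFX, intron of Tcf20, chr15:82941894-82941993: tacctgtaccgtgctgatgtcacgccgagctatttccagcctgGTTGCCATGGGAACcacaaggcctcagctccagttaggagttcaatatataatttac
paired NFI palindrome, intron of Trio, chr15:27752225-27752324: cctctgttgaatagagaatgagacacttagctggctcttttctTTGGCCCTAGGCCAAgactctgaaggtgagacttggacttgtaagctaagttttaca
AP-1, intron of Adgrb1, chr15:74566886-74566985: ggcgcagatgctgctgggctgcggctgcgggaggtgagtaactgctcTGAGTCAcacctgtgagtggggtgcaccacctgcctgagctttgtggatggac
CAGCTG, intron of Kdm6b, chr11:69409908-69410007: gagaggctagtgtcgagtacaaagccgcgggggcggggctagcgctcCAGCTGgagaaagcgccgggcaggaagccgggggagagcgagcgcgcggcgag
EGR, intron of Nrxn2, chr19:6420735-6420834: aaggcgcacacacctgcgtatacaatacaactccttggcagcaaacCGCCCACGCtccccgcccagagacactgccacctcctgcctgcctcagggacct
glucocorticoid receptor, intergenic, chr13:93000760-93000859: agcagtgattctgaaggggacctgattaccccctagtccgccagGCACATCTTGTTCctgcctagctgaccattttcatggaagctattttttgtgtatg
The EGR match reads GCGTGGGCG on the minus strand. The Sema6b site, at a strength of 1.32 in replicate 1 and 1.58 in replicate 2, held an AP-1 match besides its CTCF match. The Adgrb1 site, at 1.83 and 1.69, was among the 5 strongest weak distal sites and also held CAGATG. The Tcf20 site had strengths of 1.29 and 1.22, the Trio site 0.967 and 0.843, the Kdm6b site 1.72 and 1.70, the Nrxn2 site 1.20 and 1.24, and the intergenic site, with Cmya5 as its nearest protein-coding gene, 1.36 and 1.07. Trio, Nrxn2 and Adgrb1 encode a guanine nucleotide exchange factor, a neurexin and an adhesion receptor of neurons, and Kdm6b encodes a histone demethylase.

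Strength is the signal value that the authors deposited for each peak. It has no stated normalization and was used to describe peaks within a library. The lists came from the same cleavage data, so the strengths below describe the choice and support nothing. The median strength of weak distal sites was 0.531 in replicate 1 (quartiles 0.408 and 0.692, range 0.104 to 2.16) and 0.509 in replicate 2 (quartiles 0.398 and 0.667, range 0.139 to 2.66). Strict distal peaks had medians of 1.23 and 1.11, which were 2.32 and 2.18 times as high. All strengths were whole multiples, within 0.02 of a step, of 0.00948 in replicate 1 and 0.00926 in replicate 2, and the weak median corresponded to 56 and 55 steps against 130 and 120 for strict distal peaks. The ranges overlapped: 116 weak distal sites in replicate 1 and 156 in replicate 2 exceeded the strict median, and 4.03% and 4.43% of strict distal peaks fell under the weak median.

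**Figure D1:**
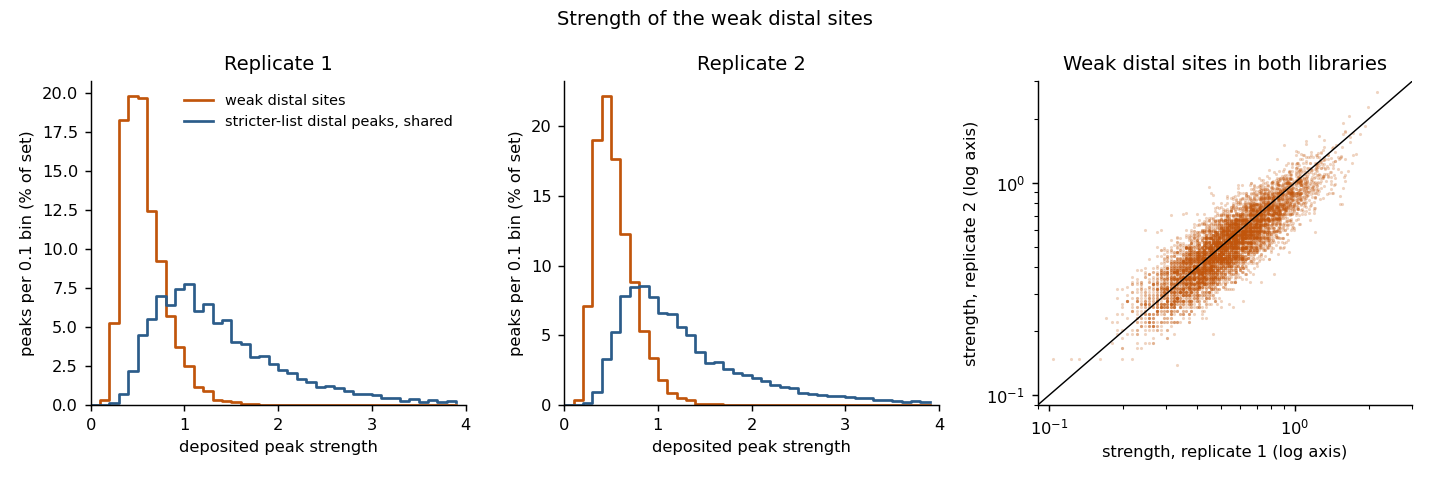
Histograms of deposited strength (bins of 0.1, up to 4, as percent of each set) for weak distal sites and strict distal peaks in each library, and the strength of weak distal sites in replicate 2 against replicate 1 on log axes with the line of equality. The weak medians of 0.531 and 0.509 lie below the strict medians of 1.23 and 1.11, and the 7464 shared loci scatter along the line.

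The order of strength among weak distal sites was alike in both libraries. Over the 7464 loci that were members in both, Spearman's rho between libraries was 0.854 and Pearson's r of log2 strength was 0.863, given as descriptions because loci are not independent samples. The median log2 ratio of replicate 2 to replicate 1 was -0.06 with an SD of 0.29 across loci. The strengths of 95.4% of these loci differed by less than 1.5-fold and those of 0.214% by more than 2-fold. For 13043 strict distal loci rho was 0.886 and 88.7% lay within 1.5-fold. Weak distal loci had to be in the broader and outside the stricter list of both libraries, and the lists share their source with the strengths. That choice limits how far the strengths of a locus can differ. The values are therefore no measure of reproducibility, alone or against strict distal loci. Another 329 loci were members in replicate 1 alone and 312 in replicate 2 alone. The partner peak touched a stricter-list peak for 334 and 318 member peaks and lay near a start for 32 and 29.

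The strongest weak distal site lay in an intron of Ralgds, which encodes an exchange factor for Ral GTPases, at chr2:28514621-28514800, with strengths of 2.16 and 2.66. The next were in untranslated sequence of Trp53i13 at chr11:77508153-77508359 (1.98 and 2.27), with CTCF and CACGTG matches, and in untranslated sequence of Kdm6b at chr11:69408601-69408941 (1.93 and 1.84). An intron of Lncppara at chr15:85670461-85670681 (1.66 and 2.05) and the Adgrb1 intron completed the 5 strongest. All 5 exceeded the strict medians in both libraries. At the other end stood a site near Gm3298 at chr14:5001471-5001660 (0.104 and 0.148) and one in an intron of Rasgrf1 at chr9:89958364-89958640 (0.123 and 0.148), the latter with an AP-1 match.

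The members nearest the 1 kb limit lay 1001 bp from the starts of Gnptab (0.739 and 0.620) and Gm2956 (0.294 and 0.250). Just outside it were peaks 1000 bp from Irf2bp2 (0.796 and 0.713) and 999 bp from Gsc (0.426 and 0.472). At the limit between the lists, the lowest false discovery rates (FDR) over single weak distal sites were 1.26e-07 and 0.000117 in replicate 1 and 4.45e-06 and 8.84e-06 in replicate 2. The highest over strict distal peaks were 0.000959 and 0.000926 in replicate 1 and 0.000965 and 0.000961 in replicate 2. The lists therefore did not divide at a single minimum FDR: 876 of 7937 weak distal sites in replicate 1 and 787 of 7927 in replicate 2 held an interval under 0.001. The longest unbroken stretch under that value had a median of 13 bp and 11 bp in those sites, against 186.5 bp and 187 bp in strict distal peaks. The median width of weak distal sites was 145 bp and 140 bp, against 194 bp and 196 bp.

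Weak distal sites lay mostly in introns and between genes. By midpoint, 49.6% ± 0.026 (SD, n = 2) were intronic and 42.7% ± 0.078 intergenic, while 3.68% were in coding exons, 2.25% in untranslated sequence and 1.80% in other exons. Strict distal peaks were less often intronic, at 42.0%, and more often intergenic, at 50.7%. Of 11227144 tiled autosomal windows of 200 bp more than 1 kb from a start, 43.0% were intronic, 53.4% intergenic and 1.07% in coding exons. The differences between weak and strict distal peaks and between weak distal sites and the genome in the intronic share exceeded the spread between libraries. The sharing criterion keeps that spread small, since 92.1% of the loci were members in both libraries. That spread and the SDs below are therefore no measure of variation between replicates. Weak distal sites lay a median of 13.7 kb and 13.6 kb from the nearest start, between strict distal peaks at 10.9 kb and 11 kb and the genome windows at 18.1 kb.

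The 200 bp around the midpoint was rich in G and C and poor in repeats. Median GC content was 51.0% in both libraries against 45.5% in windows 1 kb to each side, 52.5% in strict distal peaks and 41.5% in the genome windows. There were 4.08 and 4.04 CpG dinucleotides per window, 2.48 and 2.45 in the flanks, 5.15 in strict distal peaks and 1.57 in the genome. Windows at least 50% repeat-masked made up 2.31% and 2.33% of weak distal sites, 15.6% and 15.4% of their flanks and 28.1% of the genome.

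Weak distal sites were closer to stricter-list peaks than the genome windows were, with a median distance of 14.1 kb against 34.6 kb. Within 1 kb of a stricter-list peak lay 17.3% and 17.1% of them against 2.26% of genome windows, and beyond 100 kb lay 8.57% and 8.54% against 26.1%. Among the weak distal loci, at 3.29 per Mb, the median gap from a locus to the next was 150 kb, and 5.85% had another within 1 kb. No background of placed loci was made, so clustering was not tested.

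Footprints are short protected stretches inside accessible DNA that the authors called from the cleavage data, so they share their source with the peaks and are given as a description. At least 1 footprint of the same library was found in 61.6% of weak distal sites in replicate 1 (60.5 to 62.7) and 59.7% in replicate 2 (58.6 to 60.7), against 94.1% and 92.6% of strict distal peaks. Footprints of both libraries were present in 38.8% and 37.8%, and none from either library in 23.3% and 25.3%. They covered 6.14% and 5.85% of the bases of weak distal sites and 18.6% and 18.3% of those of strict distal peaks.

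Sequence was not used to choose the sites. Of 34 recognition sequences searched on both strands of the 200 bp windows, 14 (41.2%) were more frequent in weak distal sites than in windows 1 kb to each side, and 11 (32.4%) were so in strict distal peaks. The criterion was a fold over 1.5 and separate 95% Wilson intervals in both libraries. The intervals cover counting error only, and 2 libraries of 1 group allow no test across samples. At least 1 of the 14 was present in 61.9% and 60.8% of weak distal sites, in 37.8% and 37.9% of their flanks and in 56.8% and 56.5% of strict distal peaks. The 14 were called in these same windows, so the excess over the flanks was set by that choice. Strict distal peaks were not counted with their own 11. A match is a description of the letters and does not show that the factor was bound.

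The CTCF sequence was rarer in weak distal sites than in strict distal peaks, and far above the flanks. It was present in 185 weak distal sites of replicate 1, or 2.33% (2.02 to 2.69), and in 181 of replicate 2, or 2.28% (1.98 to 2.64). The flanks held it in 0.202% and 0.214% of windows and the genome windows in 0.0941%. Its frequency was 11.1 ± 0.65 (SD, n = 2) times that of the flanks. Strict distal peaks held it in 8.57% and 8.33%, so that the weak share was 0.273 ± 0.0016 of the strict share. NRF1, a factor of CpG-rich promoters, was likewise rarer than in strict distal peaks, with 6 windows in each library (0.0756% and 0.0757% against 0.292% in both). SP sites, spelled GGGCGGGG, were present in 1.64% and 1.44% against 2.75% and 2.64%; in windows of 40 to 50% GC this order turned over, with a weak to strict ratio of 1.08.

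Sequences of AP-1, NFI and bHLH factors went the other way. AP-1, searched as TGANTCA, was present in 11.8% of weak distal sites in replicate 1 (11.1 to 12.5) and 11.1% in replicate 2 (10.4 to 11.8). Strict distal peaks held it in 8.14% (7.69 to 8.62) and 7.74% (7.30 to 8.21), and the genome windows in 6.0%. The weak to strict ratio was 1.44 ± 0.014, and the fold over the flanks was 1.98 ± 0.080. The single NFI site TTGGCA was present in 18.9% and 18.6% of weak distal sites and in 15.1% and 14.9% of strict distal peaks. CAGCTG was present in 21.0% and 20.7% against 17.3% and 17.1%, and CAGATG in 23.5% and 23.1% against 20.9% and 21.1%. CAGATG, at 1.53 times the flanks, was near the limit of 1.5 and passed it under 6 of 9 alternative settings. For all 4 sequences the weak and strict intervals were separate in both libraries. CACGTG, the E-box of the clock and MYC families, was present in 4.84% and 4.88% against 4.41% and 4.47%, with overlapping intervals. Distal broader-list peaks that touched no stricter-list peak and had no counterpart in the other library are a set close to the weak distal sites. They held AP-1 in 10.3% ± 1.4 (mean and SD, n = 2) and TTGGCA in 17.1% ± 1.9. CAGCTG was present in 19.4% ± 2.3 of them and CAGATG in 22.4% ± 2.4.

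**Figure D2:**
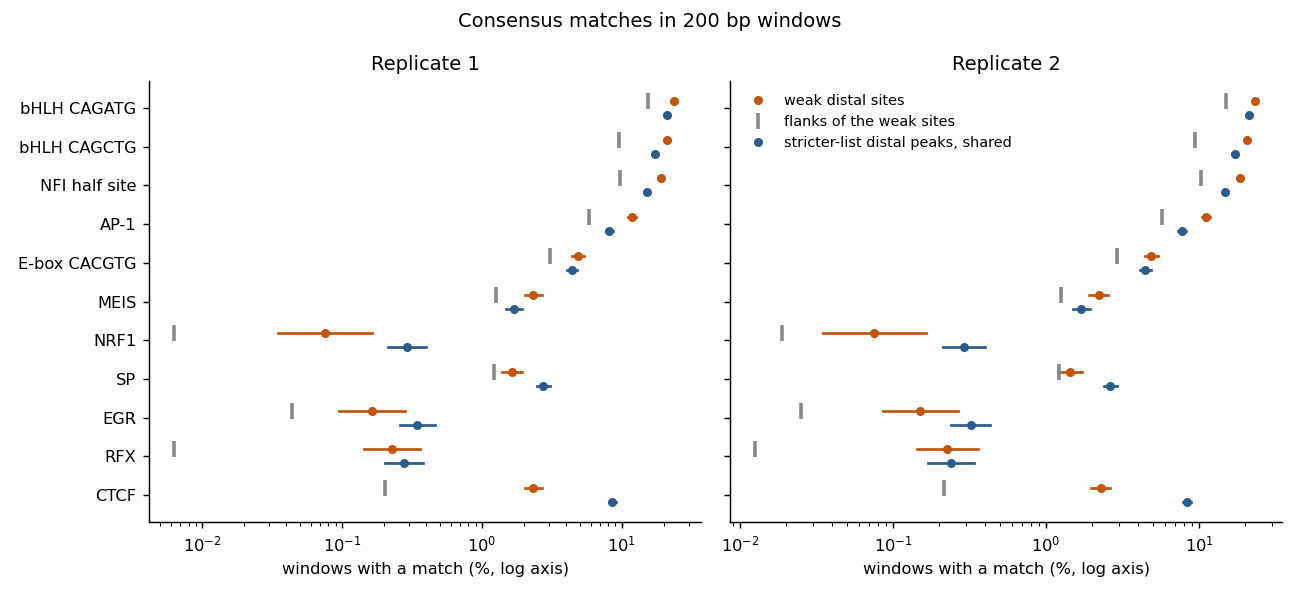
Percent of 200 bp windows (log axis) that hold each recognition sequence in weak distal sites and strict distal peaks of each library, as points with 95% Wilson intervals, with flanks of the weak sites as grey ticks (TTGGCA is labelled as an NFI site). The CTCF share of weak distal sites (2.33% and 2.28%) lies below that of strict distal peaks (8.57% and 8.33%), whereas AP-1 (11.8% and 11.1%) lies above it (8.14% and 7.74%).

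Rarer recognition sequences were also above the flanks. The MEIS sequence TGACAGCT, which shares CAGCT with CAGCTG, was present in 2.33% and 2.21% of weak distal sites and 1.27% and 1.26% of flanks. The glucocorticoid receptor sequence was present in 0.630% and 0.643% against 0.277% and 0.271%. TTATGTAA, bound by the PAR bZIP factors of the clock output, was present in 1.36% and 1.26% against 0.813% and 0.833%. Both MEF2 sequences passed the criterion on few windows: 21 and 18 sites for that with the A core, and 18 and 13 for that with the T core. EGR was found in 13 and 12 sites, RFX in 18 sites of each library against 1 and 2 flanks, and the paired NFI palindrome, which holds TTGGC on both strands, in 8 sites of each library against 2 flanks. Several of these calls depended on the setting: of 9 alternatives the paired NFI palindrome and EGR kept theirs in 4, MEF2 with the T core and PAR bZIP in 5, MEF2 with the A core in 7 and RFX in 8. The ERR sequence TCAAGGTCA and the GATA sequence AGATAAGG were below the flanks. ERR was present in 0.189% and 0.290% of weak distal sites against 0.687% and 0.688% of flanks, and GATA in 0.454% and 0.442% against 0.781% and 0.814%, with separate intervals in both libraries. Strict distal peaks were likewise below their own flanks. Their means were 0.266% against 0.590% for ERR and 0.364% against 0.686% for GATA. The genome windows held ERR in 0.424% and GATA in 0.763%.

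**Figure D3:**
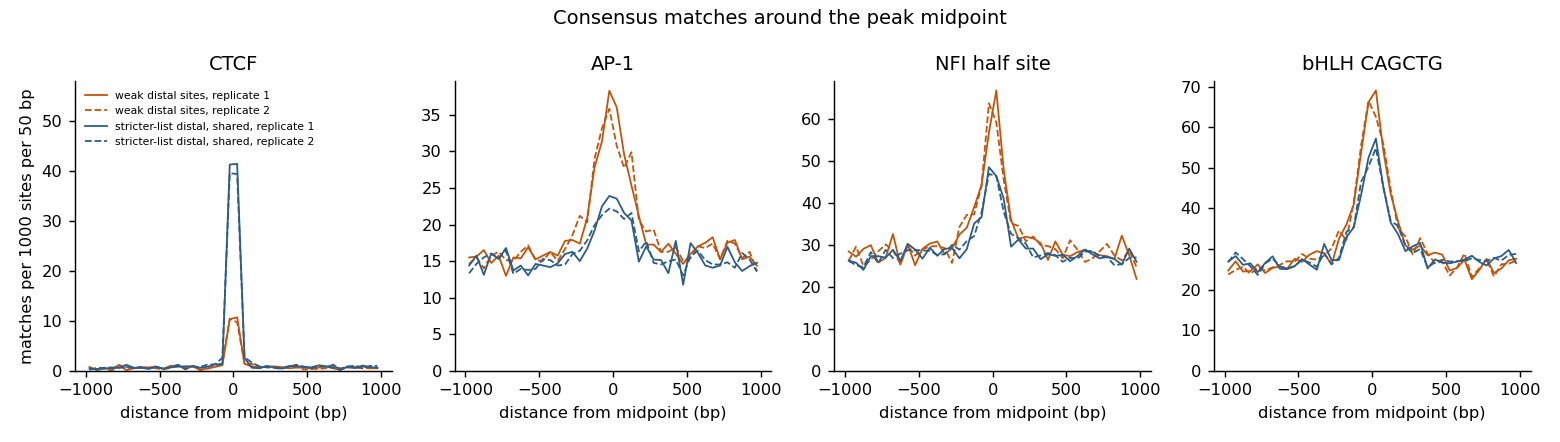
Matches of CTCF, AP-1, TTGGCA (labelled as an NFI site) and CAGCTG per 1000 sites in bins of 50 bp by distance from the midpoint of weak distal sites and strict distal peaks. In weak distal sites of replicate 1 the bin next to the midpoint holds 38.3 AP-1 and 10.3 CTCF matches per 1000 sites, against 15.5 and 14.4 AP-1 and 0.756 and 0.504 CTCF matches in the outermost bins on either side.

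Matches of CTCF in weak distal sites were usually inside a footprint, and those of AP-1, the single NFI site and the E-boxes mostly were not. A footprint of the same library overlapped 117 of 171 CTCF matches (68.4%) in replicate 1 and 104 of 163 (63.8%) in replicate 2, counted over matches within the peak. For AP-1 the share was 11.6% and 12.1%, for TTGGCA 15.0% and 11.8%, for CAGATG 11.8% and 11.4%, and for CAGCTG 10.1% and 9.70%. CACGTG stood between, at 19.6% and 26.1%. Of the rarer sequences, RFX had 10 of 18 and 9 of 11 matches in a footprint and EGR 6 of 13 and 7 of 11. MEIS had 11 of 141 and 9 of 143, PAR bZIP 10 of 82 and 17 of 83, and the glucocorticoid receptor sequence 1 of 43 and 8 of 46. The paired NFI palindrome had 1 of 8 and 2 of 6, MEF2 with the A core 1 of 19 and 4 of 17, and MEF2 with the T core 0 of 13 and 2 of 9. In strict distal peaks the shares were 97.2% and 96.4% for CTCF, 22.3% and 20.9% for AP-1, and 34.3% and 34.9% for CAGATG. Footprints covered 6.14% and 5.85% of the bases of weak distal sites, and 18.6% and 18.3% in strict distal peaks. A match of several bases overlaps a footprint more readily than a single base does. Whether the lower shares differ from overlap by position alone was not tested.

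CTCF and AP-1 sequences varied differently with strength. When weak distal sites of each library were divided at the quartiles of strength, the CTCF share was 0.826% (0.517 to 1.32) in the weakest group and 4.42% (3.59 to 5.44) in the strongest of replicate 1. In replicate 2 it was 0.762% (0.469 to 1.23) and 4.43% (3.59 to 5.45). The AP-1 share was 12.8% (11.4 to 14.3) in the weakest group and 10.9% (9.56 to 12.3) in the strongest of replicate 1, and 11.9% (10.5 to 13.3) and 9.69% (8.44 to 11.1) in replicate 2, with overlapping intervals. The weakest group was 62.0% intergenic in replicate 1 and 60.4% in replicate 2, and the strongest 32.5% and 30.2%. The median distance to a start was 25.5 kb and 24.6 kb in the weakest group and 7.57 kb and 7.04 kb in the strongest. A footprint was found in 31.8% and 30.8% of the weakest group and in 86.0% and 83.7% of the strongest. Median GC content was 49.0% in the weakest group and 54.0% in the strongest of both libraries. The part of GC content in the CTCF and AP-1 shares by strength was not tested.

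**Figure D4:**
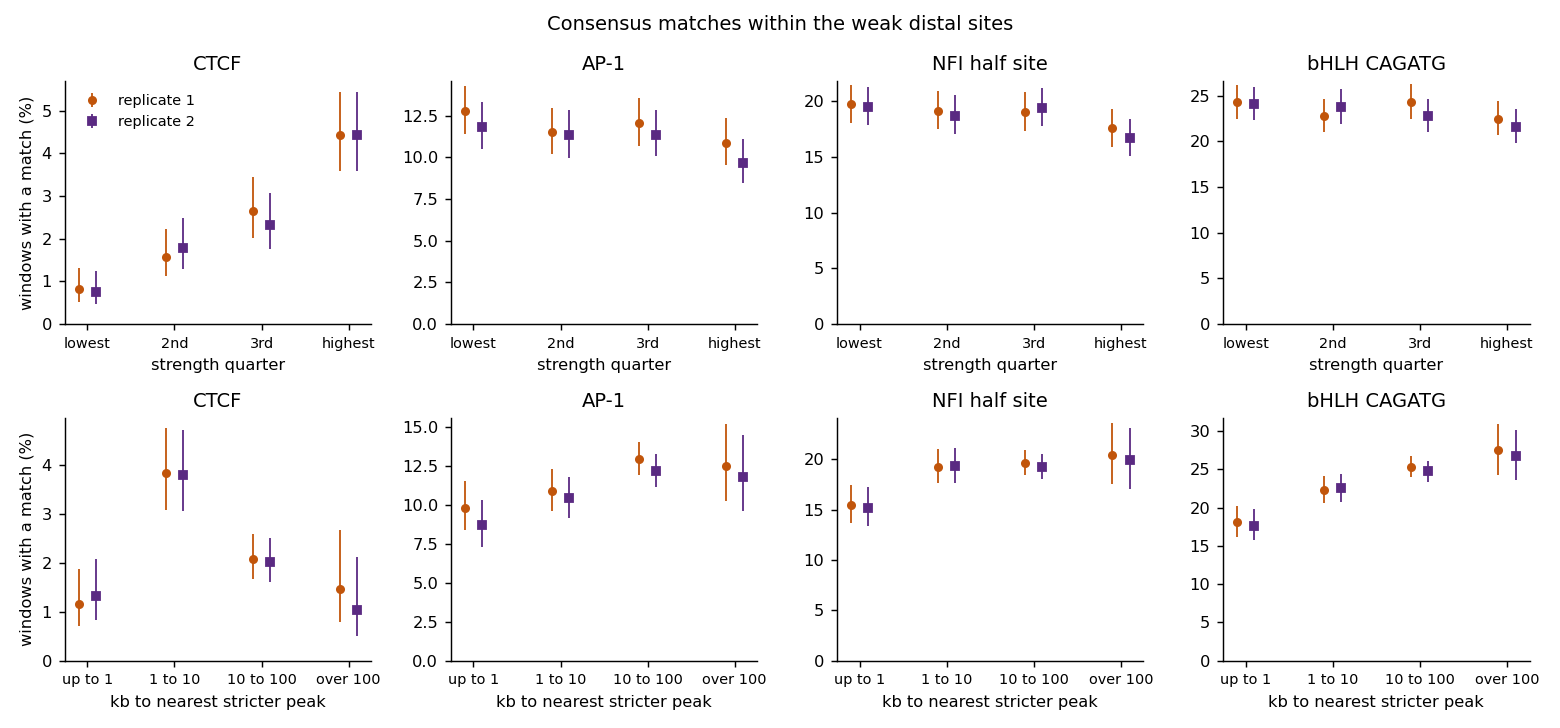
Percent of weak distal sites with CTCF, AP-1, TTGGCA (labelled as an NFI site) or CAGATG, by strength group (upper row) and by distance to the nearest stricter-list peak in kb (lower row), per library, with 95% Wilson intervals. The CTCF share is 0.826% and 0.762% in the weakest group and 4.42% and 4.43% in the strongest, and the AP-1 intervals of the weakest and strongest groups overlap.

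The surroundings of a weak distal site also went with its sequence. Within 1 kb of a stricter-list peak, CAGATG was present in 18.1% of sites in replicate 1 (16.2 to 20.2) and 17.6% in replicate 2 (15.7 to 19.8). At 10 to 100 kb it was present in 25.3% (24.0 to 26.7) and 24.7% (23.4 to 26.1). AP-1 was at 9.82% (8.36 to 11.5) within 1 kb and 12.9% (11.9 to 14.0) at 10 to 100 kb in replicate 1, and at 8.71% (7.32 to 10.3) and 12.2% (11.2 to 13.2) in replicate 2. TTGGCA was at 15.5% and 15.2% within 1 kb and at 19.7% and 19.2% at 10 to 100 kb. CTCF was most frequent at 1 to 10 kb, with 3.84% (3.09 to 4.76) and 3.81% (3.07 to 4.72), against 1.16% (0.718 to 1.88) and 1.33% (0.842 to 2.09) within 1 kb. Sites at 1 to 10 kb were also stronger, with median strengths of 0.635 and 0.593 against 0.521 and 0.528 within 1 kb. The part of strength in this pattern was not tested. By annotation, AP-1 was present in 3.10% (1.64 to 5.79) and 3.41% (1.86 to 6.17) of sites in coding exons, against 11.7% and 11.3% of intronic and 13.1% and 11.9% of intergenic sites.

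At least 1 weak distal locus lay within 50 kb of the start of 6105 of 20780 autosomal protein-coding genes (29.4%), and 2301 of these 6105 had no strict distal locus in that window. Of all 20780 genes, 10334 had a strict distal locus there, so the lack of one was more frequent over all genes. Against the 29.4%, 13 of 20 excitatory neuron genes (65.0%, 43.3 to 81.9) and 12 of 20 activity-regulated genes (60%, 38.7 to 78.1) had a weak distal locus, as did 11 of 18 housekeeping genes (61.1%, 38.6 to 79.7). The lists and the 50 kb window were chosen with earlier results of these data known, and their counts carry no test. Of the loci within 50 kb of excitatory neuron genes, 51.2% were weak rather than strict, against 31.0% over all genes. The other lists ran from 14.3% (ependymal and choroid plexus) to 44.4% (liver). In these shares a locus was counted once for each gene in whose window it lay. Counted once each, weak loci made up from 32.2% (chromosome 17) to 43.6% (chromosome 16) of the distal loci of a chromosome. Bhlhe22 and Tbr1 held 5 and 4 of the weak loci near excitatory neuron genes. When only loci more than 5 kb from every start were counted, the excitatory list kept 8 of 20 (40%), the activity-regulated list 5 of 20 (25%) and the housekeeping list 0 of 18, against 16.3% of all genes.

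Of the other lists of cell types found in cortex, loci were near 10 of 20 oligodendrocyte genes, 9 of 20 astrocyte genes, 7 of 20 synaptic and pan-neuronal genes, 7 of 19 microglia genes, 7 of 18 endothelial genes, 5 of 20 inhibitory neuron genes, 3 of 15 oligodendrocyte precursor genes, 3 of 14 pericyte and smooth muscle genes and 3 of 14 ependymal and choroid plexus genes. The intervals of these lists contained 29.4%, except that of the oligodendrocyte genes, which began at 29.9%. Among lists of other organs, 7 of 16 liver genes, 7 of 16 heart and skeletal muscle genes and 4 of 15 lymphocyte and erythroid genes had a locus, and their intervals contained 29.4% too. Neighbouring genes can share a locus, and the intervals treat them as separate. The microglia genes C1qa, C1qb and C1qc were counted through 1 locus at chr4:136924652-136924800. Synaptic Nefl and Nefm each had 1 locus of equal mean strength (0.694), as had liver Fga and Fgb (0.506). The liver genes included Tat, a tyrosine aminotransferase, with 2 loci, and the muscle genes Myog, a myogenic bHLH factor, with 3. Astrocyte Sox9, oligodendrocyte Opalin and synaptic Nrxn3 each had 3.

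**Figure D5:**
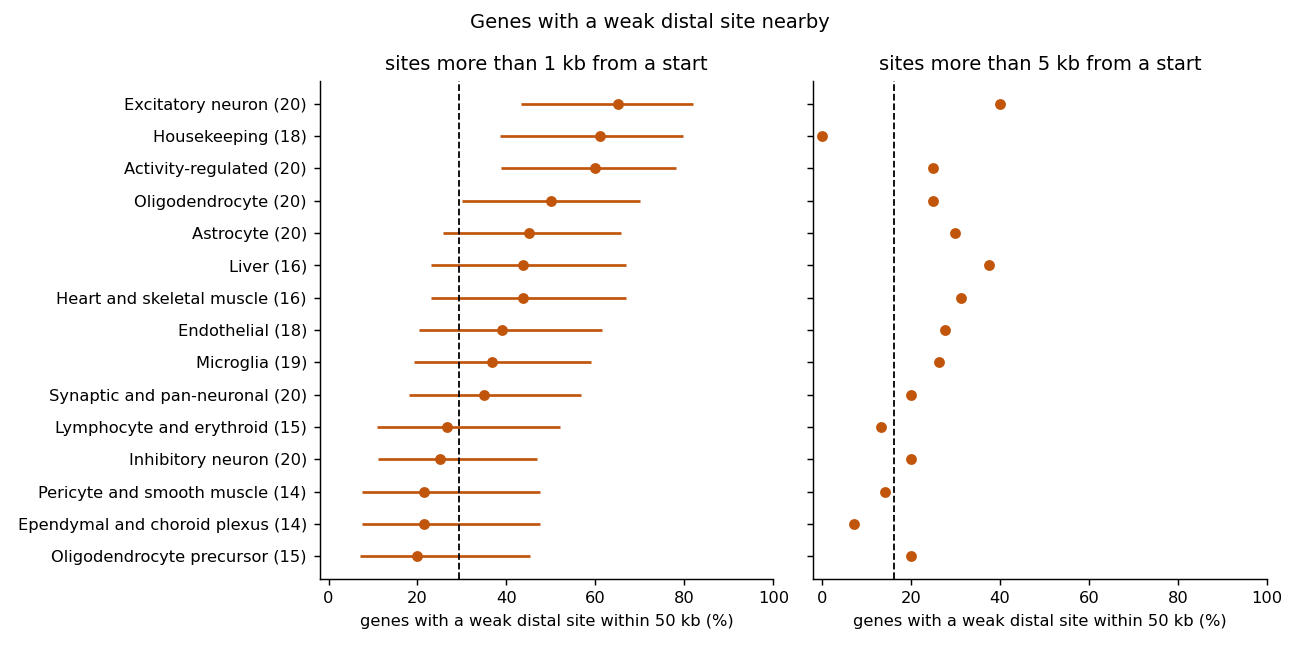
Percent of genes in each list (size in brackets) with at least 1 weak distal locus within 50 kb of the start, for all loci with 95% Wilson intervals (left) and for loci more than 5 kb from every start (right); dashed lines mark all autosomal protein-coding genes, 29.4% and 16.3%. The excitatory neuron (65.0%), housekeeping (61.1%) and activity-regulated (60%) lists lie highest on the left, and the housekeeping list is at 0 on the right.

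Among excitatory neuron genes, Bhlhe22, a bHLH factor of projection neurons, had 5 loci between chr3:18050321-18050480 and chr3:18055141-18055960. They lay 1.38 to 3.77 kb from its start, 4 upstream and 1 downstream. Their strengths were 0.351, 0.445, 0.512, 0.408 and 0.521 in replicate 1 and 0.518, 0.491, 0.50, 0.472 and 0.620 in replicate 2. All 5 lay below the weak median of replicate 1, and 3 of 5 below that of replicate 2. Tbr1, a T-box factor of deep-layer neurons, had 4 loci 9.19 to 13.3 kb downstream of its start, with strengths of 0.426 to 0.569 in replicate 1 and, for the 3 that were members there, 0.398 to 0.574 in replicate 2. Stronger sites lay near some other genes of this list. Camk2a, a subunit of the calcium/calmodulin-dependent kinase of synapses, had 2 loci, 16.9 kb (1.26 and 1.28) and 21.6 kb (1.22 and 1.31) downstream. Mef2c, a transcription factor of excitatory neurons, had 1 locus at chr13:83518030-83518673, 14.3 kb downstream (1.21 and 1.19). Cux2, an upper-layer factor, had 2 loci, at 6.36 kb (0.967 and 0.602) and 41.2 kb (0.673 and 0.833). Emx1 had 1 locus 2.89 kb downstream (0.711 and 0.963), and Bcl11b, Foxp2, Neurod2, Neurod6, Nptx1, Rorb and Sv2b had 1 each. Etv1, Fezf2 and Tle4, all transcriptional regulators of cortical projection neurons or corepressors, had neither a weak nor a strict distal locus within 50 kb.

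Among activity-regulated genes, Dusp6, a phosphatase of the ERK kinases, had 3 loci, 20.5 kb upstream (0.550 and 0.731), 21.9 kb downstream (0.995 and 0.602) and 47.6 kb downstream (0.682 and 0.620). The transcription factor Egr2 also had 3, of which that 23.1 kb upstream was the strongest (0.739 and 0.852). Dusp1, another phosphatase, had loci 14.1 kb (0.768 and 0.824) and 34.1 kb (1.06 and 1.01) upstream. The locus 33.5 kb upstream of Fosb, an AP-1 subunit, had strengths of 1.22 and 1.34, above the strict median of replicate 2. Egr1 had 2 loci that were members in replicate 2 alone, at 1.08 and 0.611. Bdnf, a neurotrophin, had none, and neither had Dusp4, Fos, Jun, Junb, Npas4, Nptx2 or Nr4a1. Of the housekeeping genes, Ppia, a cyclophilin, had upstream loci at 9.06 kb (1.01 and 1.03) and 12.5 kb (1.35 and 1.19).

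Several genes on none of these lists had as many weak distal loci as Bhlhe22 or more. Rasgef1a, an exchange factor for Ras-family GTPases, had 7 loci, with strengths of 0.787 to 1.05 in replicate 1 and 0.537 to 1.13 in replicate 2. Trim35 had 7, and Ptk2b and Stmn4, which neighbour it on chromosome 14, had 6 each. Ptk2b encodes a calcium-sensitive tyrosine kinase and Stmn4 a stathmin of neurons. The windows of these 3 genes overlap and held 8 distinct loci in all, 4 of them counted for each of the 3 genes. Their strengths were 0.844 to 1.26 and 0.778 to 1.12, all above the weak medians. Inhbb, an activin subunit, had 6 weaker loci (0.464 to 0.550 and 0.472 to 0.639). Ddit4, a stress-induced inhibitor of mTORC1 signalling, had 5 strong ones (1.06 to 1.54 and 0.805 to 1.46). Nfic, an NFI family member, had 5 of the weakest kind (0.303 to 0.436 and 0.259 to 0.333), all below the weak medians. Dusp7, an ERK phosphatase, and Cdk5r2, an activator of the neuronal kinase CDK5, had 4 each, with strengths of 0.872 to 1.41 and 0.787 to 1.06 for Dusp7 and 0.957 to 1.11 and 0.731 to 1.20 for Cdk5r2. Ubxn10, Irf2bp2, Gnaz, Robo3, Tnrc18, Ankrd28, Isx and the adjacent genes Gm49387, Btd and Hacl1, which shared theirs, had 5 loci each.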

How the data were processed

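DNase-seq was measured in 2 libraries of mouse left cerebral cortex. Peaks and footprints were made per library on mm10, per the deposited notes. No source used here names the caller, the aligner or the list thresholds. Read totals were not used, so depth is unknown and no count interval on strength was made. Peak strength is a signal value as the authors deposited it. The per-interval FDR table holds q-values, deposited by the authors up to 0.05. Footprints are intervals called by the authors.

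Members and lists were chosen with earlier results of these data known. Peaks were joined by 1 bp overlap. Starts came from GENCODE M21 and bases from RefSeq GRCm38.p6. A library's 200 bp midpoint windows were compared with windows 1 kb to each side. A sequence was called above its flanks at a fold over 1.5 with separate Wilson intervals in both libraries, flank counts under 3 being set to 3. Shares have 95% Wilson intervals. Named genes were the 20 with most loci and, per list, the 3 with most and the 1 with fewest. All loci of the excitatory neuron, activity-regulated and housekeeping lists were also read out, which goes beyond that rule and was chosen after values were seen. Of 267 listed genes 265 matched. Some genes under these rules are not reported here. Named loci were the 5 strongest, the 2 weakest, those at the 1 kb limit and sites of high strength with a called sequence. Steps were tested on simulated data. Python 3.11.15, numpy 2.4.6, pandas 2.3.3, scipy 1.17.1 and matplotlib 3.10.9 were used. The alternatives were an overlap of 50%, a distance of 5 kb, the stronger members, each library alone, 100 bp windows, windows of 40 to 50% GC and other gene windows. Flanks outside broader-list peaks and windows under 50% repeat-masked were added after seeing the data.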

Additional observations from a re-analysis of the deposited data

How the results depend on the processing

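With 2 libraries of 1 group no result has a test across samples. No paired analysis was possible because there is only 1 group. The summit-centred alternatives were not run, since the deposited summit offset is a constant. Keeping only the members at or above the median strength of members in their library left 4754 loci instead of 8105, with a mean median strength of 0.675, an intronic share of 57.3%, GC of 52.8%, footprints in 75.9%, a distance to stricter-list peaks of 8.63 kb and 9 called sequences in place of 14. Keeping sites more than 5 kb from a start gave 0.497, 46.9%, 50.5%, 58.8% and 19.7 kb for the same quantities. Requiring 50% overlap gave an intronic share of 49.9% and a distance of 14.4 kb. Windows of 100 bp gave a GC of 52.0%. The number of genes with a locus, 6105, was 3387 with the 5 kb limit, 10219 in a 100 kb window and 4032 in the gene body with 10 kb on each side. With each library alone the ranges were 7927 to 7937 loci, strength 0.509 to 0.531, footprints 59.7% to 61.6% and 14 to 16 called sequences. The CTCF, AP-1, single NFI, CAGCTG, MEIS and glucocorticoid receptor sequences were called under all 9 alternatives, RFX under 8, CACGTG and MEF2 with the A core under 7, CAGATG under 6, MEF2 with the T core and PAR bZIP under 5, and EGR and the paired NFI palindrome under 4. The weak to strict ratio ran from 0.218 to 0.406 for CTCF and from 1.39 to 1.57 for AP-1. In windows of 40 to 50% GC the SP fold over flanks was 0.881, that of LHX and DLX 1.19, and the SP weak to strict ratio 1.08.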

Other observations

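Distal peaks of the broader list that had no counterpart in the other library, and touched no stricter-list peak, numbered 11741 in replicate 1 and 11749 in replicate 2. Their CTCF share differed between the libraries: 1.98% (1.75 to 2.25) in replicate 1 and 0.834% (0.685 to 1.02) in replicate 2, by 95% Wilson intervals. AP-1 was present in 11.2% and 9.27%.

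The density of weak distal loci differed between chromosomes, from 2.74 per Mb on chromosomes 3 and 14 to 4.15 per Mb on chromosome 11, with 3.29 per Mb over all autosomes. Among weak and strict distal loci together, the weak made up 32.2% on chromosome 17 and 43.6% on chromosome 16.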
